A study of Homo sapiens with 6 samples.

Results

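The genes that license DNA replication origins were examined in HCT116 cells with and without silencing of PLEK2. The set holds 10 genes, namely CDT1, GMNN, CDC6, MCM2 to MCM7 (6 genes) and MCM10, and each was matched by its symbol among the 17047 genes of the expression table. They were chosen from the values of the comparison described here, as genes whose change within same-numbered libraries and whose accord between those pairs was of interest. The values of the knockdown comparison are therefore a description of these genes, and no significance is read from them.

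HCT116 is an established line of human colorectal carcinoma cells. The series holds poly(A) RNA sequencing of 3 libraries labelled shNC, from cells that received a non-targeting shRNA, and 3 libraries labelled PLEK2 knockdown, from cells that received an shRNA against PLEK2. The study asked which genes accompany the slower growth of the knockdown cells. The supplement of the study lists a single PLEK2 shRNA sequence, the labels do not name the shRNA, and the time between transduction and harvest is not given in the sources used here. The labels do not say whether the libraries of a group come from separate cultures, so the spread between them may be partly technical.

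Licensing is the step at which the replicative helicase is loaded onto DNA before S phase. The origin recognition complex marks the origin, CDC6 joins it, and CDT1 brings in the ring of MCM2 to MCM7, which becomes the motor of the replication fork. Geminin, the product of GMNN, binds CDT1 and blocks a further round of loading, and CDT1 protein is also destroyed once S phase begins. MCM10 acts later, when the loaded helicase is activated. Most of these genes are known as targets of the E2F transcription factors. CDT1, geminin and CDC6 proteins are also controlled by degradation, which RNA sequencing does not measure.

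The promoters are shown first, because the members are known as E2F targets and the letters let a reader see what they share. RefSeq promoter windows (GRCh38.p14, 250 bases before to 50 after an annotated start) were found for 8 of the 10 genes, in 11 windows. They were searched on both strands for the words TTTGGCGC, TTTCCCGC and TTTCGCGC, forms of the E2F site, which can overlap one another. Of the 8 genes, 7 had a word in some window, all but MCM10. Of all 35116 windows, 2.74% (961) held a word. The first count is of genes and the second of windows, and some genes have several windows, so the shares are not directly comparable. Capitals mark the words, or their reverse complement, in the stretches below, each of which ends at or before the start site.

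CDT1, chr16:88803738-88803777, plus strand: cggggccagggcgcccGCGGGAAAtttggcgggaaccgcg

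GMNN, chr6:24775317-24775356, plus strand: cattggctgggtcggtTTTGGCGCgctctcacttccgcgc

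MCM3, chr6:52284893-52284932, minus strand: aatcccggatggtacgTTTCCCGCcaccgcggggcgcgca

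MCM6, chr2:135876568-135876611, minus strand: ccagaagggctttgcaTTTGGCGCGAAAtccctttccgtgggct

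MCM6, chr2:135876506-135876549, minus strand: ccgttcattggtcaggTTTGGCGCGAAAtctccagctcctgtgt

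MCM7, chr7:100101561-100101600, minus strand: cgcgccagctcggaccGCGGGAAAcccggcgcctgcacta

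The CDT1 word begins at position -35 from the start, and that of GMNN at -80. MCM6 held the same 12 letters at both -152 and -90, in which TTTGGCGC and the reverse complement of TTTCGCGC overlap. In MCM2 and CDC6 the words lie just after the start and are not printed. MCM3 and MCM7 each held a further word, TTTCGCGC, beginning at -4 and -9, which is not printed either. A word is a match of letters and was not tested as a binding site.

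Library totals lay between 14377532 and 15602732 estimated counts. PLEK2 itself had 86.0, 72.6 and 82.9 CPM (counts scaled to a common library size with TMM factors) in shNC replicates 1, 2 and 3 and 16.02, 32.2 and 34.9 in the knockdown libraries with the same numbers, so the target was lower in each. Its log2 fold change was -1.54 (standard error 0.24) in the fit of the groups, where edgeR's quasi-likelihood test gave an adjusted p of 0.684, and -1.57 (0.17) once the replicate number was a block, where it gave 0.00106. Of the 7 colorectal epithelial markers, EPCAM, CDH1, KRT8, KRT18 and KRT19 were present at 71.6 CPM or more, whereas VIL1 and CEACAM5 stayed at or below 0.191. COL1A1 reached 33.4 CPM while COL1A2 did not exceed 0.0692, and the leukocyte markers listed stayed at or below 0.212. Libraries with the same number deviated together from their group means, and replicate 1 stood apart in both groups, as described further on.

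All 10 genes passed the filter on low counts, with between 737 and 7525 estimated counts per library, which leaves a counting error of at most 3.7%. Levels were compared between genes as FPKM, which divides the count by transcript length and library total. MCM7 was the most abundant, with a mean of 173 ± 12.6 FPKM (SD, n = 6 libraries), higher than 96.9% of the genes tested. MCM5 (108 ± 9.89) and MCM3 (98.9 ± 5.63) followed, both as FPKM with SD over the 6 libraries. CDT1 came next with 96.7 ± 18.1 FPKM, and its range of 69.4 to 115 was the widest of the set relative to its mean (coefficient of variation 18.7%, against 4.9% to 10.4% for the other 9). MCM4 and MCM2 had means of 83.6 ± 5.46 and 82.1 ± 5.24 FPKM, MCM6 64.4 ± 6.72, CDC6 52.8 ± 2.59 and GMNN 50.7 ± 4.37. MCM10 was the lowest at 36.5 ± 3.32 FPKM (SD, n = 6).

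Among the 9 neighbours in this order, 5 kept their order in all 6 libraries. MCM7 lay above MCM5, MCM5 above MCM3, MCM2 above MCM6, MCM6 above CDC6 and GMNN above MCM10 in each library. MCM3 exceeded CDT1 in 3 of 6 libraries, CDT1 exceeded MCM4 in 4, MCM4 exceeded MCM2 in 3 and CDC6 exceeded GMNN in 4, so these neighbours had no fixed order. CDT1 lay below MCM4 in replicate 1 of both groups and above it in replicates 2 and 3 of both groups. Although the helicase holds its 6 subunits in equal number, MCM7 mRNA was between 2.39 and 3.13 times that of MCM6, the highest and lowest subunits in every library. The transcripts of MCM7 and MCM6 differ in GC content (56.6% and 43.2%), which FPKM does not adjust for. The build behind the deposited values, and so the lengths used, is also unsettled.

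The loading factor CDT1 was lower with PLEK2 shRNA in each pair of same-numbered libraries, but the groups overlapped. It had 212.4, 296.0 and 291.9 CPM in shNC replicates 1, 2 and 3, and 172.2, 260.0 and 240.8 in PLEK2 shRNA replicates 1, 2 and 3. The means were 266.8 ± 47.2 and 224.4 ± 46.2 CPM (SD, n = 3). Replicate 1 was the lowest library of each group, and both its values lay below all those of replicates 2 and 3. Within pairs 1, 2 and 3 the log2 ratio of CDT1 was -0.30, -0.19 and -0.28, so that its pairs differed by 0.12 at most, the smallest such range among the 10 genes.

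Its inhibitor geminin was on the other side of 0. GMNN had 54.2, 52.0 and 55.1 CPM with shNC against 62.9, 56.3 and 56.3 with PLEK2 shRNA, and these groups did not overlap. The highest shNC value and the lowest PLEK2 shRNA values were close, within the counting error of GMNN (up to 3.7% in a library). The log2 ratios of GMNN were 0.21, 0.11 and 0.03 in pairs 1, 2 and 3, and the means were 53.8 ± 1.59 and 58.5 ± 3.79 CPM (SD, n = 3). On the FPKM scale, GMNN mRNA amounted to 0.58, 0.401 and 0.431 times CDT1 mRNA in the shNC libraries and to 0.845, 0.491 and 0.538 times in the PLEK2 shRNA libraries. The ratio was thus higher with PLEK2 shRNA in each pair, while shNC replicate 1 lay above PLEK2 shRNA replicates 2 and 3. CDT1 and GMNN have the highest and lowest GC content of the set (65.7% and 42.0%). The libraries differed in how levels ran with GC, as given below, and the ratio was not adjusted for this.

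CDC6, which joins the origin recognition complex before CDT1, did not keep 1 direction. Its CPM were 167.0, 152.1 and 141.9 with shNC and 149.3, 152.7 and 155.6 with PLEK2 shRNA, with log2 ratios of -0.16, 0.01 and 0.13. The means of 153.7 ± 12.6 and 152.5 ± 3.17 CPM (SD, n = 3) differed by far less than the spread between libraries.

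**Figure D1:**
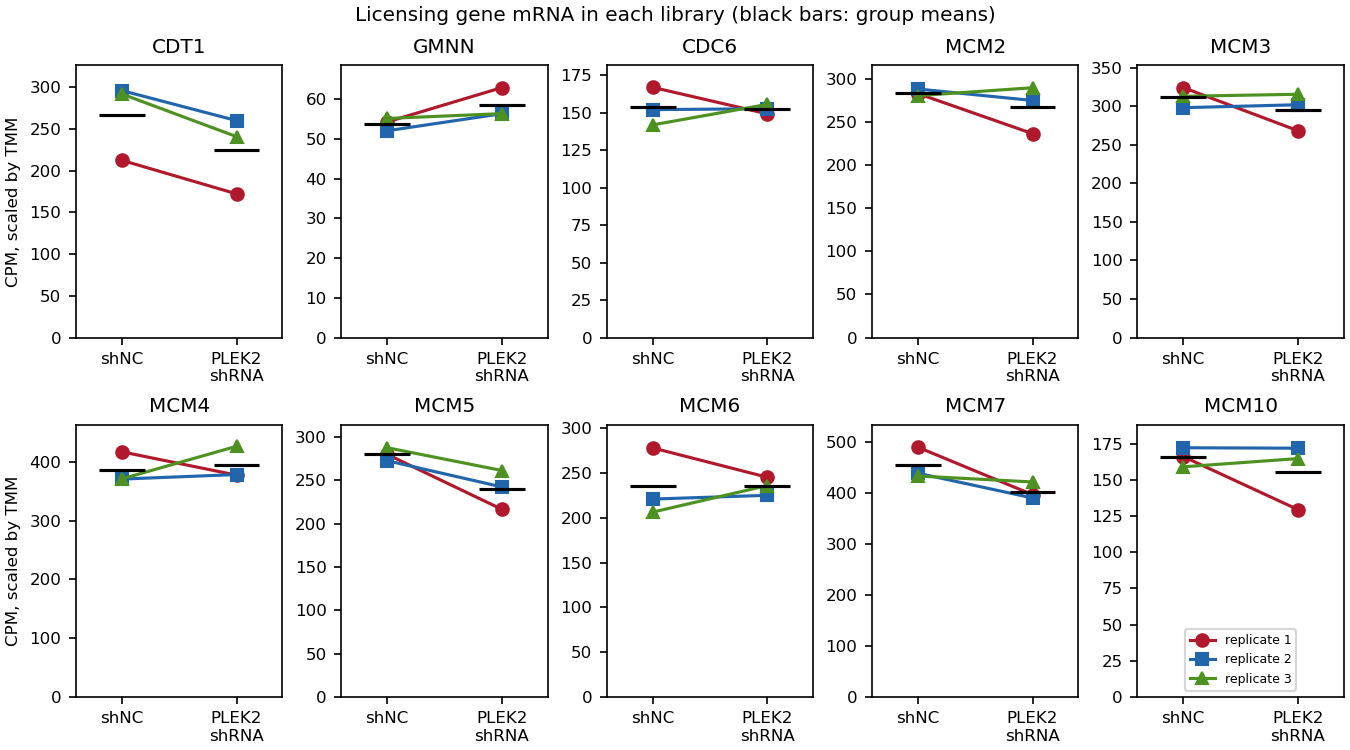
TMM-scaled CPM (y axes, each from 0) of the 10 genes in shNC and PLEK2 shRNA libraries (x axes), where coloured lines join libraries with the same number and black bars are group means. All 3 lines slope down for CDT1, MCM5 and MCM7, all 3 slope up for GMNN, and the others cross.

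Among the helicase subunits, MCM5 and MCM7 were lower in each pair and without overlap between the groups. MCM5 had 280.1, 272.8 and 287.8 CPM with shNC against 216.6, 242.5 and 261.5 with PLEK2 shRNA. Its means were 280.3 ± 7.51 and 240.2 ± 22.5 CPM (SD, n = 3), and its log2 ratios were -0.37, -0.17 and -0.14. MCM7 had 490.5, 439.4 and 433.9 CPM with shNC against 397.2, 390.7 and 422.2 with PLEK2 shRNA, with log2 ratios of -0.30, -0.17 and -0.04. The highest knockdown value of MCM7 (replicate 3) and its lowest shNC value (replicate 3) were close together. Exons of MCM7 share 392 of 4960 nt with AP4M1 on the opposite strand (GENCODE 44, GRCh38), and whether the counting used strand is not given in the sources used here. AP4M1 had a mean of 192.2 counts, far below MCM7. The estimated counts of MCM7, like those of CDT1, were not whole in each library (2 libraries for MCM7 and 1 for CDT1 had fractions), so a part of the reads was shared out among genes.

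The other 4 subunits were lower in pair 1 and at or near 0, or higher, in pair 3. MCM2 had 282.6, 287.9 and 280.2 CPM with shNC against 236.2, 274.6 and 289.4 with PLEK2 shRNA. Of the MCM2 exons, 1113 of 4715 nt lie opposite an unnamed gene that is not listed in the expression table. MCM3 had 324.5, 298.4 and 313.2 against 268.5, 302.2 and 315.8 CPM. In both genes the first knockdown library was the lowest of the 6, while that of replicate 3 was level with shNC or above it. MCM4 had 417.1, 370.7 and 371.1 CPM with shNC against 377.4, 378.4 and 426.5 with PLEK2 shRNA. MCM6 had 278.1, 220.9 and 206.3 against 245.3, 225.1 and 236.0 CPM, and its group means of 235.1 ± 37.9 and 235.5 ± 10.1 (SD, n = 3) were nearly the same. MCM4 and MCM6 thus turned from log2 ratios of -0.14 and -0.18 in pair 1 to 0.20 and 0.19 in pair 3.

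MCM10, the activation factor, had 166.3, 172.4 and 159.2 CPM with shNC against 129.6, 172.1 and 164.9 with PLEK2 shRNA. Only its first knockdown library was apart from the rest, and its pair ratios spanned 0.41 on the log2 scale, the widest of the set.

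In pair 1, 9 of the 10 genes were lower with PLEK2 shRNA, with a median log2 ratio of -0.27 against 0.001 over all genes tested. In pair 2, 5 were lower and 5 higher (median 0.00), and in pair 3, 3 were lower and 7 higher (median 0.04), against medians of -0.004 and -0.001 over all genes. CDT1, MCM5 and MCM7 (3 of 10) were lower in all 3 pairs, as were 21.1% of all 12959 genes tested, and GMNN (1 of 10) was higher in all 3, as were 19.9% of all genes. Groups did not overlap for MCM5 and MCM7, with PLEK2 shRNA lower (5.12% of all genes), and for GMNN, with PLEK2 shRNA higher (4.08% of all genes). The choice of these genes used the same contrast, so nothing is read from these shares. In bulk RNA, fewer cells in the phase that expresses a gene and less RNA per cell cannot be told apart.

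**Figure D2:**
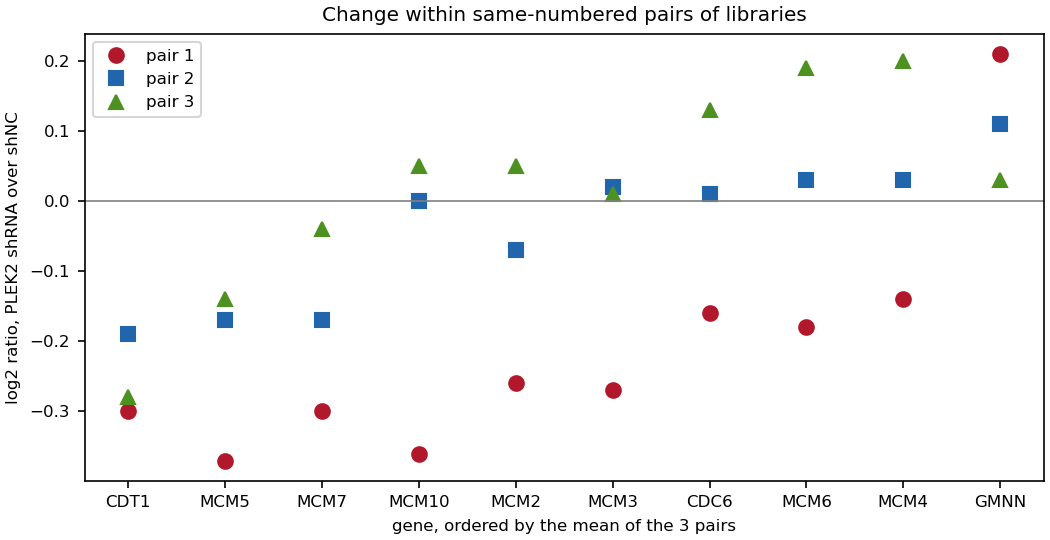
Log2 ratio of TMM-scaled CPM, PLEK2 shRNA over shNC (y axis), for each gene (x axis, ordered by the mean of its pairs), with 1 symbol for each same-numbered pair. The pair 1 symbols lie lowest for every gene but GMNN, and all 3 symbols lie below 0 for CDT1, MCM5 and MCM7.

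In the fit of the groups, which has no term for the replicate number, edgeR's quasi-likelihood test gave CDT1 a log2 fold change of -0.25 (standard error 0.17), MCM5 -0.22 (0.09), MCM7 -0.17 (0.08) and GMNN 0.12 (0.09). The other 6 lay between -0.09 and 0.03. None of the 10 genes (0) passed a Benjamini-Hochberg adjusted p of 0.05, nor did any gene of the table (0%). At an unadjusted p under 0.05, MCM5 was the 1 member called, among 400 of 12959 genes (3.09%). DESeq2's Wald test called 0 of the 10 and 12 genes in all.

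No label states a pairing, and it was inferred from these same libraries. Since same-numbered libraries deviated together from their group means, the number was also entered in the fit as a block. This gave CDT1 a log2 fold change of -0.26 (standard error 0.05), a change of -16.2%, and CDT1 was the 1 member called, with an adjusted p of 0.0471 from edgeR's test. With the block, 0.849% of all genes were called in either direction and 0.725% as lower. MCM5 (-0.23, standard error 0.06) and MCM7 (-0.17, standard error 0.06) did not pass (edgeR's adjusted p was 0.0817 for MCM5 and 0.155 for MCM7), nor did GMNN (0.12, standard error 0.06), at 0.323. The call depended on the libraries used. Leaving replicate 2 out of both groups gave CDT1 -0.28 with an adjusted p of 0.278 (edgeR with the block), leaving out replicate 3 gave -0.23 with 0.0702, and leaving out replicate 1 gave -0.23 with 0.00899. Without replicate 3, MCM5 was called in place of CDT1 (-0.26, adjusted p 0.0364, same fit). The share of all genes called moved as well, to 0.138% without replicate 2, 2.29% without replicate 3 and 4.06% without replicate 1.

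The members differ in GC content, and so did the libraries in how levels ran with it. Transcripts of CDT1 averaged 65.7% GC in GENCODE 44, as high as or higher than 96.8% of the genes tested, whose median was 50.4%. MCM5 followed with 59.1%, then MCM2 with 57.3% and MCM7 with 56.6%, whereas GMNN had the lowest GC content of the set (42.0%), just below MCM6 (43.2%). Over 12478 genes with a GC value, the log2 level of a gene relative to its mean changed by -0.113, 0.101 and 0.14 per 10 percentage points of GC in shNC replicates 1, 2 and 3, and by -0.202, 0.039 and 0.036 in PLEK2 shRNA replicates 1, 2 and 3. GC-rich genes were thus lower in the knockdown library of each pair, and lower in replicate 1 of both groups. After a linear GC term was removed from each library, the fit with the block gave CDT1 -0.12 (standard error 0.05), and edgeR's adjusted p was 0.46. MCM5 was at -0.15, MCM7 at -0.12, MCM2 at -0.03 and GMNN at 0.05 in that fit, each nearer to 0 than with the block alone. Others moved away from 0, with MCM10 at -0.15 against -0.10, MCM6 at -0.05 against 0.01 and CDC6 at -0.04 against -0.01. The fit called 0 of the 10 genes and 40 of the 12478 genes with a GC value (0.321%). The block alone called 110 of 12959 (0.849%), so both the term and the set of genes differ between these counts. The term removes any difference between groups that runs along GC content, whatever its origin, and the origin was not tested.

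The rule that chose the genes did not use the difference between replicate numbers, although earlier results of these data were known. That difference was tested over all genes with edgeR's quasi-likelihood F test. It called 1 of the 10 genes, CDT1 (adjusted p 0.000276), and 28.4% of all 12959 genes tested. CDT1 lay 0.34 below its mean on the log2 scale in replicate 1, and 0.20 and 0.14 above it in replicates 2 and 3. This range of 0.54 between replicate numbers exceeded the fitted difference between the groups. MCM6 ran the other way, 0.16 above its mean in replicate 1 and 0.07 and 0.09 below it in replicates 2 and 3, and missed the threshold (adjusted p 0.0525, edgeR), which it passed with library totals, with DESeq2's size factors and without a filter on low counts. The count was not stable to the libraries used: without shNC replicate 1 it was 5 of 10 (CDT1, MCM2, MCM3, MCM5 and MCM10; 28.5% of all genes) and without shNC replicate 3 it was 3 of 10 (27.5% of all genes). With all 6 libraries, the other 8 genes spanned 0.09 to 0.23 and were not called. After removal of the linear GC term, the same F test called 0 of the 10 genes (adjusted p 0.155 for CDT1 and 0.864 for MCM6, edgeR) and 749 of the 12478 genes with a GC value (6.0%), against 3684 of 12959 in the fit without the term.

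The rest of the replication pathway was followed in 5 lists written from general knowledge, which hold 68 genes, 67 of them tested. In the fit of the groups edgeR called 0 of the 67, and 0% of all genes. At an unadjusted p under 0.05 there were 4, all lower (RBX1, RECQL4, LIG1 and POLD1), while 3.09% of all genes passed in either direction. With the replicate block edgeR again called 0 of the 67, against 0.849% of all genes. DESeq2 with the block called 1, RECQL4, and 0.571% of all genes. With the block and the linear GC term edgeR called 0 of the 67, and 0.321% of the genes with a GC value. The values below are without that term. The genes given for each list below have the smallest p in the fit of the groups, except DTL, SKP2, DBF4, MTBP, POLE and PCNA. Those were named after their values were seen. All values are those with the block unless stated otherwise.

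Upstream of CDT1, the median log2 fold change of the 7 origin recognition genes in the fit with the block was 0.03, from -0.13 for LRWD1, which helps hold the complex on chromatin, to 0.15 for ORC3, a core subunit. ORC6, the smallest subunit, was at 0.06. The 5 MCM relatives and partners had a median of -0.06, with MCM9, a helicase of DNA repair, at -0.14, MCM3AP at -0.08 and MCMDC2 at -0.06. None of these 12 genes was called, and the median over all genes in the same fit was -0.0018.

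Of 14 genes that control CDT1 or geminin, 13 were tested and 0 were called, with a median of 0.01 with the block. RBX1, the RING subunit of the cullin ligases that mark CDT1 for destruction, had 32.4, 32.9 and 36.5 CPM with shNC against 27.3, 28.3 and 30.1 with PLEK2 shRNA. Its groups did not overlap, with PLEK2 shRNA lower, as for 5.12% of all genes. The same held for RECQL4, GINS1, LIG1 and POLD1 below. The log2 fold change of RBX1 with the block was -0.25 (standard error 0.07; adjusted p 0.103, edgeR). SKP1, a partner of SKP2 in another such ligase, was at 0.18 and FZR1, an activator of the ligase that destroys geminin, at -0.15. DTL, the receptor that binds CDT1 at PCNA, was at -0.06, and the SKP2 receptor itself at 0.05.

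Downstream, the 17 genes of helicase assembly and origin firing had a median of -0.04 with the block and 0 calls. RECQL4, a helicase needed for firing, had 192.2, 190.6 and 200.3 CPM with shNC against 152.8, 165.1 and 174.6 with PLEK2 shRNA, without overlap (5.12% of all genes, as above). Its log2 fold change with the block was -0.25 (standard error 0.05; adjusted p 0.0526, edgeR). GINS1, a subunit of the active helicase, and TIMELESS, a fork protection factor, were both at -0.14. DBF4, the activator of the CDC7 kinase, was at -0.20 (adjusted p 0.122, edgeR with the block), and MTBP, at 0.18, was the highest of this list.

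The 25 elongation and clamp genes had a median of -0.01, and 0 were called. POLD1, the catalytic subunit of polymerase delta, had 76.9, 83.9 and 85.2 CPM with shNC against 60.1, 71.7 and 72.2 with PLEK2 shRNA. It was lower in every pair, as were 21.1% of all genes, with a log2 fold change of -0.27 with the block (standard error 0.06; adjusted p 0.0505, edgeR). LIG1, the ligase of the lagging strand, was at -0.25 (adjusted p 0.0779, edgeR with the block) and POLD4, a small subunit of the same polymerase, at -0.21 (0.244). POLE, the catalytic subunit of polymerase epsilon, was at -0.19 (0.151), and PCNA, the clamp, at 0.04.

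Between replicate numbers, edgeR's F test called 18 of the 67 pathway genes, near the share over all genes (28.4%, as above). These were 3 of 7 origin recognition genes (ORC2, ORC3 and ORC4), 0 of 5 MCM relatives and partners, 3 of 13 control genes (CUL4B, SKP1 and FBXO5), 6 of 17 assembly and firing genes and 6 of 25 elongation genes.

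Genes whose profile over the 6 libraries was among the most like that of CDT1 were RUFY1 (Pearson r = 0.9986), CHMP1A (0.9978), RPUSD1 (0.9977) and ING5 (0.9977), among 10133 genes with a mean log2 CPM over 3. These values describe 6 libraries that share replicate numbers and their GC trend, and 3 of these 4 genes, all but RUFY1, lay above the median GC content, between 55.2% and 66.8%. Of the members, MCM10 and MCM2 were at r = 0.77 (ranks 2402 and 2424), MCM5 at 0.69, MCM3 at 0.5 and MCM7 at 0.11. MCM4 was at -0.31, CDC6 at -0.34, MCM6 at -0.72 and GMNN at -0.80. The 4 genes above were picked for their high r, so the members are not compared with them.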

How the data were processed

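Per the labels, polyadenylated RNA was read as single ends of 50 bases. The authors deposited estimated counts per gene, without normalization, and values without a named unit that were read as FPKM, because library ratios from counts over FPKM came within 0.27% of the ratios of count totals (6014 genes). The submitters' processing notes name HISAT2 2.0.4, Bowtie2 2.2.5, RSEM 1.2.12 and DESeq2 1.4.5, and the build GRCm38.p6, a mouse assembly, although the cells and the gene numbers are human. The build behind the counts is thus unsettled, and no coordinate was taken from it. The authors' group means were not used.

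Groups came from the treatment label and replicate numbers from the titles. Counts were rounded, filtered with filterByExpr (12959 genes kept), scaled by TMM and tested with edgeR 4.0.16, with Benjamini-Hochberg adjustment over all genes tested. Standard errors are the log2 fold change over the square root of F. DESeq2 1.42.0, limma 3.58.1, R 4.3.3, Python 3.11.15, numpy 2.4.6, pandas 2.3.3 and matplotlib 3.10.9 were also used. The scripts were tested on simulated data. GC content is the mean over the protein-coding transcripts of a gene in GENCODE 44. Within a group, the spread between libraries exceeded counting error (chi-square per gene 3.05 to 20.21), so none was a copy of another library. This does not show whether the libraries came from separate cultures.

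Libraries were taken as paired by the numbers in their titles, because deviations from the group mean of same-numbered libraries correlated over 10161 genes (r = 0.736, 0.558 and 0.554 for numbers 1, 2 and 3). Libraries with different numbers gave -0.629 to 0.358, and numbers 2 and 3 also correlated across groups (0.358 and 0.355). No label states what the number stands for.

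The members and lists were chosen with earlier results of these data known. Named were PLEK2, all members, in each list the genes called with or without the block (0 genes) and otherwise the 3 with the smallest p without the block, and the 5 genes most like CDT1, of which 1 is not reported here. DTL, SKP2, MTBP, POLE, PCNA and the genes called between replicate numbers were named after their values were seen. Alternatives were other scalings, filters and tests, limma-trend on log2(FPKM + 1), the replicate block, leaving out libraries or replicate numbers and, chosen after seeing the data, the linear GC term.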

Additional observations from a re-analysis of the deposited data

How the results depend on the processing

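The number of licensing genes called (0 of 10 with edgeR) was 1 with the replicate block (0.849% of all genes called), 1 with the block and library totals (1.48%) and 1 with the block and DESeq2's Wald test (0.571%; CDT1 each time), 1 with the block and without replicate 1 in both groups (CDT1; 4.06%) and 1 without replicate 3 in both groups (MCM5; 2.29%). It stayed at 0 in all other alternatives, among them the block with the linear GC term, the block without replicate 2 in both groups, and each library left out in turn without the block. Among the 67 pathway genes (0 called), the block called 1 with DESeq2 (RECQL4), 2 without replicate 1 in both groups (POLD1 and RECQL4) and 4 without replicate 3 (LIG1, POLD1, POLE and RECQL4), in the fits whose shares over all genes are given above. In the edgeR fit of all 6 libraries, the replicate block changed no other call among the licensing and pathway genes, and PLEK2 passed only with the block. The number of licensing genes that differed between replicate numbers (1, CDT1) was 2 with DESeq2's size factors, library totals or all genes with at least 1 count (CDT1 and MCM6; 28.0%, 29.3% and 22.7% of all genes), 1 with DESeq2's likelihood ratio test (13.8%) and 0 with the linear GC term (6.0%). Leaving out 1 library at a time gave between 1 and 5, with CDT1 in each, while 14.6% to 29.5% of all genes were called. The 5 were CDT1, MCM2, MCM3, MCM5 and MCM10 without shNC replicate 1, and 3 were called without shNC replicate 3. The cause was not tested for any of these.

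The log2 fold change of CDT1 stayed below 0 in every alternative, between -0.38 and -0.09 when 1 library at a time was left out without the block. Those of MCM5 and MCM7 lay between -0.29 and -0.15 and between -0.21 and -0.10 in the same way. CDC6, MCM3, MCM4, MCM6 and MCM10 took both signs across the alternatives. CDT1, MCM5 and MCM7 were the genes lower in all 3 pairs under each scaling tried. Library totals moved the median over all genes from -0.0021 to 0.0291. Every licensing gene had at least 737 counts per library, so depth limits little here apart from the small gap between the groups of GMNN.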
